A study of Homo sapiens with 6 samples.

Results

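The 10 genes described here are YAP1, WWTR1, TEAD1 to TEAD4, LATS1, LATS2, VGLL4 and AMOTL2, the core of the Hippo pathway and the TEAD transcription factors it acts on. They were picked by name from the 62696 genes in the count tables, each matched 1 gene identifier, and all 10 had enough counts to be tested. RNA was sequenced from DMS53, an established small cell lung cancer (SCLC) cell line with neuroendocrine (NE) features. The control group had 3 libraries of cells transduced with the empty lentiviral vector, and the OC2-OE group had 3 libraries of cells transduced with a vector for constitutive expression of GFP-tagged ONECUT2 (OC2). The empty vector carried GFP and puromycin resistance, both groups were selected with puromycin, and whether cells were pooled or cloned is not given in the sources used here. The comparison asks how these genes differ when OC2, a homeobox transcription factor, is forced in an NE cell line.

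In the Hippo pathway, the MST kinases activate the LATS kinases, which phosphorylate the coactivators YAP (YAP1) and TAZ (WWTR1) and so keep them out of the nucleus. YAP and TAZ do not bind DNA themselves and act through the TEAD factors, while VGLL4 competes with them for TEAD. Angiomotins such as AMOTL2 bind YAP at cell junctions, and LATS2 and AMOTL2 are themselves known targets of YAP and TAZ, which closes a feedback loop. NE forms of SCLC are known for little YAP1, and whether YAP1 marks a subtype of SCLC is debated.

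RefSeq promoter windows on GRCh38.p14, running from 250 bases before to 50 bases after an annotated start, were at hand for 8 of the 10 genes (16 windows), with no entry for TEAD1 and TEAD4. The TEAD motif GGAATG, searched on both strands, was found in 3 of the 16 windows, against 14% of 35116 windows of that length. The windows with a match belonged to YAP1, AMOTL2 and LATS2, and they are shown because YAP1 and AMOTL2 had the largest changes of the 10 genes and because AMOTL2 and LATS2 are known targets of YAP and TAZ. The 250 bases before the start are given for YAP1 and AMOTL2, and a stretch of 30 bases across the start for LATS2, with the motif in capitals and each sequence on the strand of its gene. In AMOTL2 the motif lies on the opposite strand, so that the capitals read CATTCC.
YAP1, chr11:102110197-102110446, plus strand: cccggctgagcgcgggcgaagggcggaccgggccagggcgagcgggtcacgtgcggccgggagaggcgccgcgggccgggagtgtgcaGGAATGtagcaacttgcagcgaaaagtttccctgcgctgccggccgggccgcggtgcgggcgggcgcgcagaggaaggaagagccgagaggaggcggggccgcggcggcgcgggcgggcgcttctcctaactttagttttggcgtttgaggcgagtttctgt
AMOTL2, chr3:134374448-134374697, minus strand: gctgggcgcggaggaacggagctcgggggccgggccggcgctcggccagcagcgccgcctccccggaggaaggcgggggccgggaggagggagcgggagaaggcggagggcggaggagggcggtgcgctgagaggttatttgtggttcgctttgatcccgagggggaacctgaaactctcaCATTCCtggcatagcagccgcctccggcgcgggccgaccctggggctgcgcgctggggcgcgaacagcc
LATS2, chr13:21061560-21061589, minus strand: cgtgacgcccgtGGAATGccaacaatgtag
The first base in capitals lay 162 bases before the start in YAP1, 69 bases before it in this window of AMOTL2 and 9 bases after the first transcribed base in LATS2. A second AMOTL2 window, at an upstream start, had no match. The ONECUT motif, searched as ATCAAT and ATCGAT on both strands, was found in 1 of the 16 windows, a LATS1 window with the match 70 bases before the start, against 6.96% of all windows. The AP-1 motif TGANTCA was found in 1 window, also of LATS1, against 7.71% of all windows. No match overlapped another, and a match of letters is a description of the sequence and not a binding site.

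Of the 10 genes, 9 had an adjusted p under 0.001 in the quasi-likelihood test of edgeR (Benjamini-Hochberg adjustment over all genes tested), 6 higher and 3 lower in OC2-OE cells. The same threshold was passed by 56.5% of the 17307 genes tested, by 27.8% as higher and by 28.7% as lower, so that a call by itself was common in this comparison. YAP1 rose 10.2-fold and AMOTL2 fell 4.81-fold, and TEAD2 rose from a very low level. The other 6 called genes, TEAD1, TEAD3, TEAD4, LATS1, LATS2 and VGLL4, changed by less than 1 on the log2 scale, and WWTR1 was not called. With a change of at least 1 on the log2 scale required as well, 3 of the 10 genes remained, against 17.3% of all genes tested. The 2 groups did not overlap for any of the 10 genes, which was also the case for 73.2% of all genes tested. The 10 genes had a median log2 difference of 0.45, against 0.0071 over all genes tested, and a median absolute difference of 0.48 against 0.38. In bulk RNA, fewer cells that express a gene and less RNA per cell cannot be told apart.

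**Figure D1:**
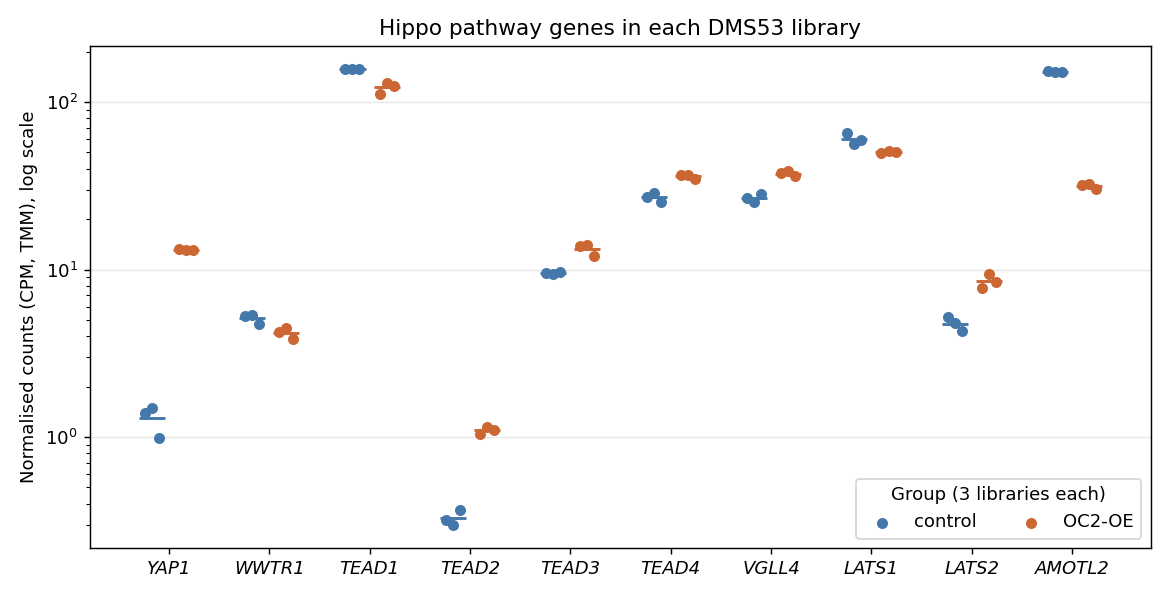
Normalised counts (CPM after TMM normalisation, log axis) of the 10 genes in each library, with control in blue, OC2-OE in orange and a bar at the mean of each group. YAP1 sits between 0.984 and 1.49 in control and between 13.1 and 13.3 in OC2-OE libraries, AMOTL2 shows the widest fall, and the groups do not overlap for any gene.

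The libraries held between 16533284 and 19099337 counts. The introduced gene ONECUT2 had 394 to 465 counts in control and 68853 to 74031 in OC2-OE libraries, so that each library matched its label. The 8 NE markers were all called, 2 higher and 6 lower, with a summed level of 5980 to 6030 CPM in control and 4660 to 4730 CPM in OC2-OE libraries. The 4 epithelial markers EPCAM, KRT8, KRT18 and CDH1 summed to 3890 to 3960 and 3120 to 3180 CPM. Of these, KRT8 and KRT18 were called lower, at -0.52 and -0.72 on the log2 scale, EPCAM was called higher at 0.34, and CDH1 was not called. Of the markers of other cell types, the 4 immune markers summed to 0.478 to 0.696 CPM in control and 2.19 to 2.74 CPM in OC2-OE libraries, with CD3E at 0 and PTPRC at 0 or 1 counts in every library. LYZ, with 21 counts in control and 122 in OC2-OE libraries, was called higher, at 2.44 on the log2 scale. CD68 had 8 and 11 counts, too low to be tested. The 3 endothelial markers summed to 2.99 to 3.96 and 2.36 to 3.35 CPM, with CDH5 (52 and 3 counts) called lower, PECAM1 (125 and 134 counts) not called and VWF (1 and 17 counts) too low to be tested. The 4 fibroblast markers summed to 21.0 to 23.8 and 28.0 to 31.9 CPM, with COL1A1 (21.5 and 27.8 CPM) and PDGFRB (8 and 49 counts) called higher, COL1A2 (27 and 65 counts) not called and LUM (6 and 0 counts) too low to be tested. The part of these markers in the changes below was not tested.

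YAP1 (ENSG00000137693.14, chromosome 11 of GRCh38, 102110447 to 102233424) encodes the coactivator YAP. It had 26, 25 and 16 counts in control replicates 1, 2 and 3, and 254, 228 and 238 counts in OC2-OE replicates 1, 2 and 3. After normalisation this was 1.39, 1.49 and 0.984 CPM in control and 13.3, 13.2 and 13.1 CPM in OC2-OE libraries. The OC2-OE libraries were close to each other, and control replicate 3 was the lowest of the control libraries. The mean of 3 libraries was 1.29 ± 0.270 CPM (SD) in control and 13.2 ± 0.0959 CPM (SD) in OC2-OE cells. This was a log2 difference of 3.34 ± 0.15 (SE, adjusted p = 1.52e-41, edgeR). Per exon length, the level of YAP1 went from the 6.44th percentile of all tested genes in control cells to the 38th percentile in OC2-OE cells, so that it remained below the median gene after a 10.2-fold rise.

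WWTR1 (ENSG00000018408.15, chromosome 3, 149517235 to 149736714) encodes TAZ, the paralog of YAP. Its level was 5.30, 5.32 and 4.74 CPM in control and 4.23, 4.50 and 3.84 CPM in OC2-OE replicates 1, 2 and 3. All OC2-OE libraries were below all control libraries, but the difference was small. The log2 difference of -0.29 ± 0.15 (SE) had a 95% interval from -0.58 to 0.00062 and missed the threshold, with an adjusted p of 0.0720 (edgeR) and 0.0522 to 0.218 under the other settings. It rests on 265 counts in control and 229 in OC2-OE libraries.

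The counts of both coactivators were set per exon length and library size (RPKM), so that the genes can be compared with each other. On this scale WWTR1 exceeded YAP1 by 3.04-fold in control libraries, and YAP1 exceeded WWTR1 by 4.17-fold in OC2-OE libraries. The log2 ratio of YAP1 to WWTR1 was -1.52, -1.43 and -1.86 in control and 2.05, 1.95 and 2.17 in OC2-OE replicates 1, 2 and 3, a difference of 3.66 (exact two-sided permutation p = 0.10, the smallest that 3 against 3 libraries allow). The ratio is taken within a library and does not depend on the scaling of libraries. The summed level of both coactivators was 0.817 ± 0.0822 RPKM (SD, n = 3) in control and 2.59 ± 0.050 RPKM (SD, n = 3) in OC2-OE cells, of which YAP1 made up 24.8% and 80.6%.

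The TEAD factors share a DNA-binding domain and carry YAP and TAZ to their target genes. Of the 4 factors, 3 rose and TEAD1 fell. TEAD1 (ENSG00000187079.20, chromosome 11, 12674421 to 12944737) had 158, 157 and 157 CPM in control and 112, 130 and 124 CPM in OC2-OE replicates 1, 2 and 3. The control libraries were nearly equal and OC2-OE replicate 1 was the lowest of the 6. Its log2 fold change was -0.37 (standard error 0.035, adjusted p = 1.46e-15, edgeR).

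TEAD4 (ENSG00000197905.10, chromosome 12, 2959330 to 3040676) had 27.1, 28.7 and 25.2 CPM in control and 36.5, 36.9 and 34.6 CPM in OC2-OE replicates 1, 2 and 3, with a log2 difference of 0.41 ± 0.060 (SE, adjusted p = 8.25e-10, edgeR). TEAD3 (ENSG00000007866.22, chromosome 6, 35473597 to 35497079) had 9.58, 9.44 and 9.66 CPM in control and 13.8, 14 and 12.1 CPM in OC2-OE libraries, with a log2 difference of 0.48 ± 0.096 (SE, adjusted p = 5.02e-06, edgeR). In both genes OC2-OE replicate 3 was the lowest of its group and still above every control library. TEAD2 (ENSG00000074219.14, chromosome 19, 49340595 to 49362457), the TEAD factor known from early development, had 6, 5 and 6 counts in control and 20, 20 and 20 counts in OC2-OE libraries. Its log2 difference of 1.72 ± 0.40 (SE, adjusted p = 6.56e-05, edgeR) rests on 17 and 60 counts in all. With the Wald test of DESeq2, TEAD2 did not pass the threshold (adjusted p = 0.00204). The other settings, with edgeR or limma voom, gave adjusted p-values from 4.32e-05 to 0.000984. The highest, just under the threshold, was that of edgeR without control replicate 2.

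The summed level of the 4 TEAD factors was 29.8 ± 0.742 RPKM (SD, n = 3) in control and 32 ± 1.23 RPKM (SD, n = 3) in OC2-OE cells. TEAD1 made up 49.4% ± 1.16 (SD, n = 3) of it in control and 35.7% ± 2.10 (SD, n = 3) in OC2-OE cells, and TEAD4 made up 39.8% ± 1.58 and 49.5% ± 1.40. TEAD3 had 10.5% ± 0.378 and 13.7% ± 0.882, and TEAD2 had 0.372% ± 0.0499 and 1.15% ± 0.0334. For each of the 4 shares the groups did not overlap (exact two-sided permutation p = 0.10 each, adjusted p = 0.10 over the 4, the smallest possible). Per length, TEAD1 was the first of the family in control cells and TEAD4 in OC2-OE cells. This order depends on the division by length, since TEAD1 has 10700 exon bases in the annotation and TEAD4 has 2275. As shares of undivided counts, TEAD1 was first in both groups, with 81.0% in control and 70.7% in OC2-OE cells, and TEAD4 had 13.9% and 20.9%. The direction of the summed TEAD level depends on the division by length as well. In mean CPM, TEAD1 went from 157.5 in control to 122.2 in OC2-OE cells, TEAD4 from 27.0 to 36.0 and TEAD3 from 9.56 to 13.3. The fall of TEAD1 was larger than the rises together, so the undivided sum was lower in OC2-OE cells. Per length, the summed TEAD factors exceeded the summed coactivators by 36.7-fold in control and by 12.4-fold in OC2-OE cells.

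**Figure D2:**
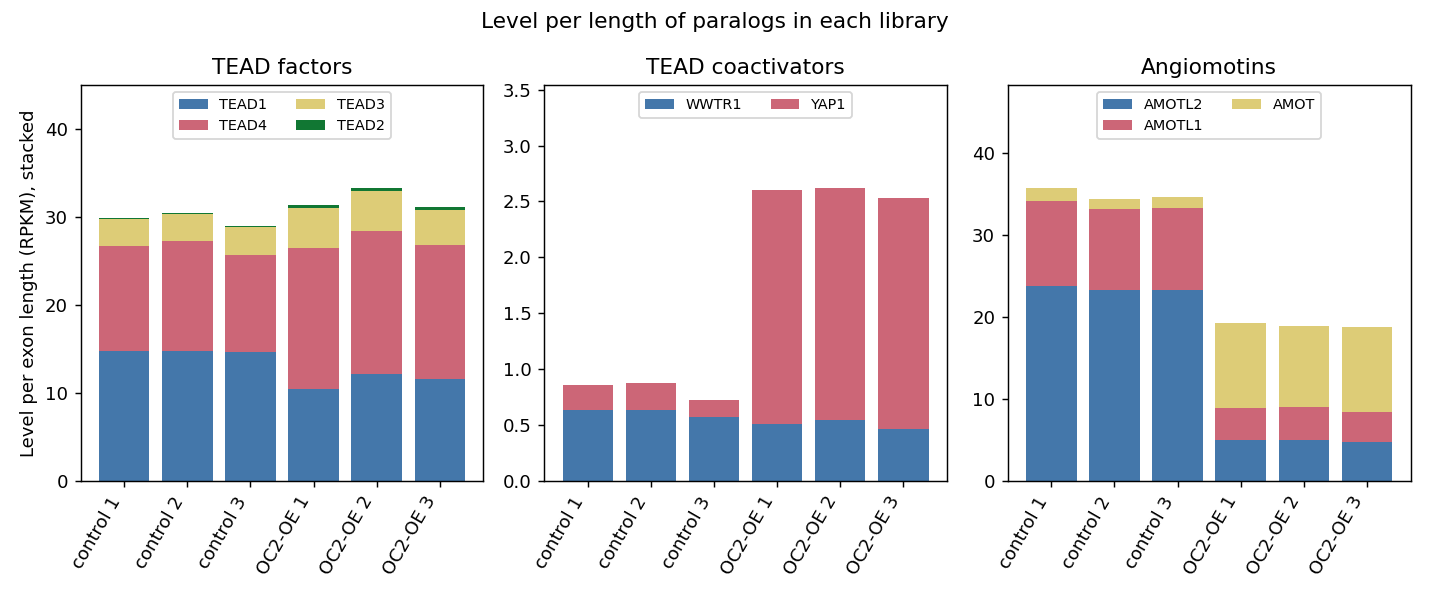
Stacked levels per exon length (RPKM, bars from 0) of the TEAD factors, the coactivators YAP1 and WWTR1 and the angiomotins in each of the 6 libraries, on separate axes. The TEAD sum lies between 29.0 and 33.4 RPKM, YAP1 takes most of the coactivator sum in OC2-OE libraries, and AMOT takes most of the angiomotin sum there.

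VGLL4 (ENSG00000144560.16, chromosome 3, 11556069 to 11771350) encodes a cofactor that binds TEAD in place of YAP and TAZ. Its level was 26.7, 25.5 and 28.4 CPM in control and 37.7, 38.5 and 36.0 CPM in OC2-OE replicates 1, 2 and 3. Every OC2-OE library was above every control library, with a log2 difference of 0.48 ± 0.059 (SE, adjusted p = 2.86e-12, edgeR). Per length, VGLL4 was 4.62 ± 0.745 times (SD, n = 3) the summed YAP1 and WWTR1 level in control and 2.01 ± 0.0321 times (SD, n = 3) in OC2-OE cells.

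The kinases LATS1 and LATS2 phosphorylate YAP and TAZ. LATS1 (ENSG00000131023.13, chromosome 6, 149658153 to 149718105) had 65.2, 56.1 and 59.0 CPM in control and 49.8, 51.3 and 50.7 CPM in OC2-OE replicates 1, 2 and 3. Control replicate 1 was the highest, and the log2 difference of -0.25 ± 0.047 (SE, adjusted p = 1.27e-06, edgeR) was the smallest among the called genes. LATS2 (ENSG00000150457.9, chromosome 13, 20973036 to 21061586) had 5.19, 4.78 and 4.31 CPM in control and 7.72, 9.47 and 8.40 CPM in OC2-OE libraries, with a log2 difference of 0.83 ± 0.13 (SE, adjusted p = 5.09e-09, edgeR). LATS1 exceeded LATS2 by 8.36-fold per length in control and by 3.93-fold in OC2-OE cells. The log2 ratio of LATS1 to LATS2 was 3.05, 2.96 and 3.18 in control and 2.09, 1.84 and 2.0 in OC2-OE libraries, which did not overlap (exact two-sided permutation p = 0.10, the smallest possible). The summed level of both kinases was 7.93 ± 0.599 RPKM (SD, n = 3) in control and 7.48 ± 0.245 RPKM (SD, n = 3) in OC2-OE cells, and here the groups overlapped. This overlap depends on the division by length. In undivided CPM, the sum of every OC2-OE library was below that of every control library, narrowly so between control and OC2-OE replicate 2.

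AMOTL2 (ENSG00000114019.15, chromosome 3, 134355347 to 134375479) encodes an angiomotin that binds YAP at junctions. Its level was 154, 151 and 151 CPM in control and 31.9, 32.4 and 30.4 CPM in OC2-OE replicates 1, 2 and 3. The libraries of each group were close to each other, and the mean of 3 libraries went down from 152 ± 1.73 to 31.6 ± 1.02 CPM (SD), with a log2 difference of -2.27 ± 0.042 (SE, adjusted p = 2.55e-82, edgeR). The pseudogene RPL39P5 shares 2.89% of the exon bases of AMOTL2 on the same strand, where reads could be left uncounted, and the other 9 genes share none with another gene. AMOTL2 was the most abundant of the 10 genes per length in control cells, at the 87.6th percentile of all tested genes, and the fifth in OC2-OE cells, at the 55.7th percentile. Without division by length it was below TEAD1 in control cells, at a mean of 151.8 against 157.5 CPM.

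**Figure D3:**
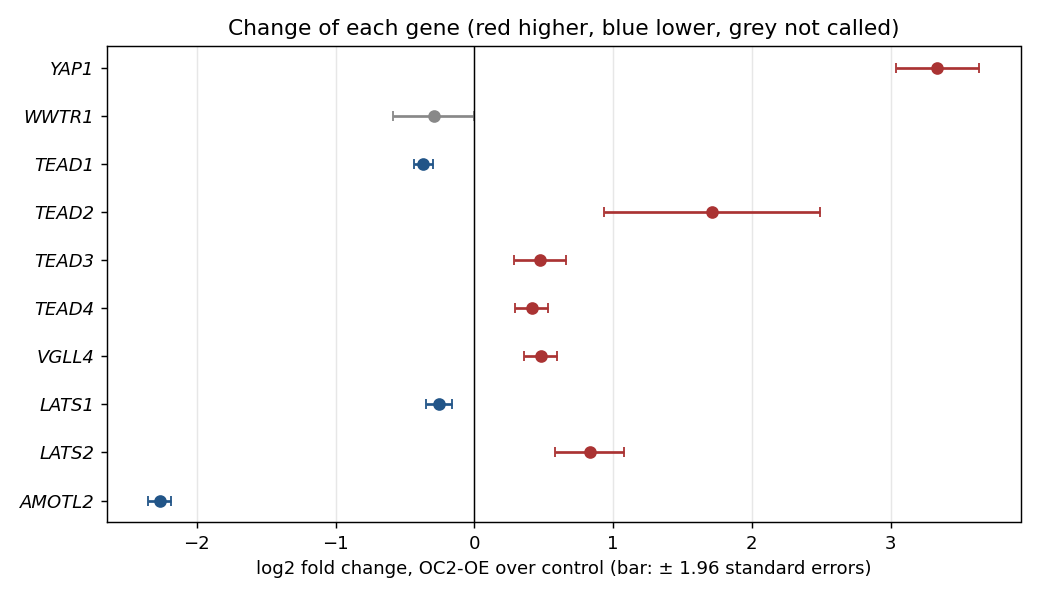
log2 fold change of each of the 10 genes, OC2-OE over control, with bars for the 95% interval. YAP1 at 3.34 and AMOTL2 at -2.27 lie farthest from 0, the bar of TEAD2 is the widest, and that of WWTR1 reaches 0.

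Per length, the order in control cells was AMOTL2 (23.4 RPKM), TEAD1, TEAD4, LATS1, VGLL4, TEAD3, LATS2, WWTR1, YAP1 and TEAD2 (0.111 RPKM), with no overlap of neighbouring genes between libraries. In OC2-OE cells it was TEAD4 (15.8 RPKM), TEAD1, LATS1, VGLL4, AMOTL2, TEAD3, YAP1, LATS2, WWTR1 and TEAD2 (0.369 RPKM), and only VGLL4 and AMOTL2 overlapped, at 5.19 ± 0.181 and 4.87 ± 0.158 RPKM (SD, n = 3). YAP1 thus stood below LATS2 and WWTR1 in control and above both in OC2-OE cells, which was also the case in mean CPM. Other places in the order depend on the division by length. In mean CPM, TEAD1 was above AMOTL2 in control cells, at 157.5 against 151.8. LATS1 was above TEAD4 in both groups, at 60.1 against 27.0 in control and 50.6 against 36.0 in OC2-OE cells.

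The other genes of the pathway were grouped in lists by role, and each list was described by its counts beside the 56.5% of all tested genes that were called. Of 21 upstream kinases and adaptors of LATS, 20 could be tested, with 8 higher, 4 lower and 8 not called. The median log2 fold change of this list was 0.11, with a range from -1.31 to 1.81. The MST kinase STK3 rose by 0.20 on the log2 scale, and STK4, the other MST kinase, SAV1, MOB1A and NF2 were not called, with log2 fold changes from 0.033 to 0.074. TNIK, a kinase related to MAP4K4, rose from 12.9 ± 0.978 to 45.4 ± 2.73 CPM (SD, n = 3), with 13.1, 11.9 and 13.8 CPM in control and 47.0, 47.0 and 42.3 CPM in OC2-OE libraries. MAP4K4, a kinase that can activate LATS next to the MST kinases, fell from 510 ± 6.85 to 206 ± 2.47 CPM (SD, n = 3). WWC2, a scaffold of the KIBRA family, fell from 23.4 ± 1.5 to 11.6 ± 1.53 CPM (SD, n = 3).

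Of 6 proteins that bind YAP and TAZ or inhibit LATS, 2 were higher, 2 lower and 2 not called, with a median log2 fold change of 0.27. The angiomotin AMOT had 13.7, 10.8 and 11.9 CPM in control and 88.7, 83.9 and 88.4 CPM in OC2-OE libraries, a rise of 2.84 ± 0.059 on the log2 scale (SE, adjusted p = 7.27e-76, edgeR). AMOTL1, the third angiomotin, went the other way, with 105, 98.4 and 101 CPM in control and 39.5, 40.1 and 37.6 CPM in OC2-OE libraries, a log2 difference of -1.38 ± 0.044 (SE, adjusted p = 4.54e-57, edgeR). AMOT thus rose where AMOTL1 and AMOTL2 fell. Per length, AMOTL2 made up 67.1% ± 0.734 (SD, n = 3) of the 3 angiomotins in control and 25.7% ± 0.798 in OC2-OE cells, and AMOT 4.06% ± 0.401 and 53.8% ± 1.46. The summed level of the 3 genes was 35.0 ± 0.750 RPKM (SD, n = 3) in control and 19.0 ± 0.255 RPKM in OC2-OE cells. PTPN14, a phosphatase that binds YAP and stands on the target list as well, fell by 1.41 on the log2 scale, from 62.2 ± 3.06 to 23.4 ± 0.476 CPM (SD, n = 3).

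The STRIPAK complex carries a phosphatase that acts against the MST kinases. Of its 10 listed subunits, 3 fell and 7 were not called, with a median log2 fold change of 0.013. The 3 were the striatin STRN at -0.43, PDCD10 at -0.41 and MOB4 at -0.32 on the log2 scale. With library size only as normalisation, 5 subunits were called. Of the other VGLL cofactors of TEAD, VGLL2 had 9, 10 and 11 counts in control and 25, 26 and 32 counts in OC2-OE libraries, a log2 difference of 1.37 ± 0.33 (SE, adjusted p = 9.82e-05, edgeR). VGLL2 was not called without OC2-OE replicate 3, without control replicate 1 or with the Wald test of DESeq2. VGLL3 was not called, at -0.87 on the log2 scale, and VGLL1 had 0 counts in all 6 libraries.

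A list of 22 targets of YAP and TAZ, which holds AMOTL2 and LATS2, had 19 genes that could be tested, with 5 higher, 9 lower and 5 not called. Its median log2 fold change was -0.63, against 0.0071 for all genes tested, and its median absolute change was 0.97 against 0.38. Without AMOTL2 and LATS2, 4 were higher and 8 lower of 17 tested, with the same median. IGFBP3, a binding protein of insulin-like growth factors, had 239, 230 and 241 CPM in control and 28.1, 27.5 and 26.5 CPM in OC2-OE libraries, a log2 difference of -3.11 ± 0.039 (SE). TGFB2, a ligand of the TGF-beta family, had 143, 138 and 134 CPM in control and 16.4, 18 and 17.8 CPM in OC2-OE libraries, a log2 difference of -2.99 ± 0.048 (SE). These genes fell while the coactivator YAP1 rose. The 5 targets that rose, named after their values were seen, were FJX1, CRIM1, ARHGEF17, LATS2 and ASAP1, with log2 fold changes of 1.58, 1.38, 1.17, 0.83 and 0.60. CCN1 and CCN2, secreted matrix proteins often used as readouts of YAP activity, were also chosen after their values were seen. CCN1 fell by 0.97 on the log2 scale, and CCN2, with a log2 difference of 0.45, was not called (adjusted p = 0.0858, edgeR), with 84 counts in control and 121 in OC2-OE libraries. The 3 targets that could not be tested were AXL with 0 counts, ANKRD1 with 3 and 2 counts and FOXF2 with 0 and 1 counts in the control and OC2-OE groups.

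**Figure D4:**
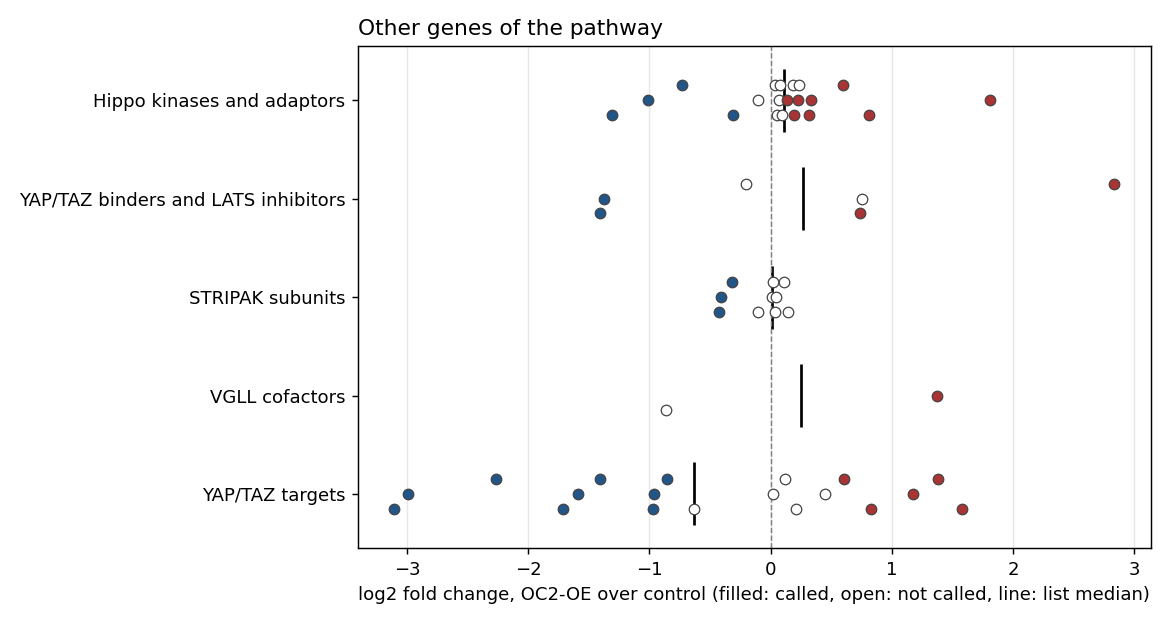
log2 fold change, OC2-OE over control, of the tested genes of the other pathway lists, with 1 point per gene, filled red or blue where called as higher or lower and open where not called, and a line at the median of each list. The YAP/TAZ targets spread from -3.11 to 1.58 with a median of -0.63, and the STRIPAK subunits stay near 0.

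The genes with the pattern closest to that of YAP1 over the 6 libraries, by the Euclidean distance of centred log2 CPM, were GSTA2 (distance 0.157), SEMA6C (0.234) and TMOD1 (0.286). Their log2 fold changes were 3.32, 3.34 and 3.36, and their levels in control cells were 3.85 ± 0.517, 2.54 ± 0.390 and 4.67 ± 0.372 CPM (SD, n = 3). The value of GSTA2, a glutathione transferase, is uncertain, since its reads can be shared with close paralogs. With 2 groups of libraries, this distance mostly compares the size of the difference between the groups.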

How the data were processed

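Poly(A) RNA of 6 DMS53 libraries was measured, with replicates 1 to 3 in each group. The study describes independent experiments, and the labels name no separate cultures, so p-values measure the spread between these libraries. The authors aligned reads to GRCh38 with STAR version 2.7.9a and deposited raw counts of read pairs per gene from featureCounts version 1.6.0, counted as reverse stranded, with exons of GENCODE release 42 summed and without normalisation or filter. The STAR version and the build come from the submitters' processing notes. Libraries held 16533284 to 19099337 counts, which limits the precision of genes with few counts.

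Symbols were matched by identifier for 62625 of 62696 genes. In R version 4.3.3, 17307 genes that passed filterByExpr were tested with edgeR version 4.0.16 (TMM normalisation, quasi-likelihood test with robust estimates, group as the only term), with Benjamini-Hochberg adjustment over all of them and the threshold of 0.001 used by the study. Standard errors (SE) were derived from the F statistic as |log2 difference|/√F. RPKM are CPM divided by the exon length of the annotation in units of 1000 bases. Ratios and shares were compared by exact two-sided permutation of libraries. The other sums and ratios and the angiomotin shares were added after values had been seen and are given as descriptions. The scripts were tested on simulated data.

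The genes and lists were chosen with earlier results of these data known, and the lists were written from general knowledge. All 10 genes are named, and from each list the 3 called genes with the largest absolute change. STK3, STK4, SAV1, MOB1A, NF2, MOB1B, WWC1, WWC3, MINK1, STRN3, STRN4 and VGLL3 were named after values were seen. Alternatives were DESeq2 size factors, library size only, upper-quartile normalisation, limma voom (version 3.58.1), the Wald test in DESeq2 (version 1.42.0), no low-count filter, a minimum of 10 counts per library, a table without ONECUT2, a replicate block, leaving out single libraries, other thresholds, and no division by length. Libraries of a group differed by 1.32 to 2.05 times the variance that sampling gives, so none was a copy of another.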

Additional observations from a re-analysis of the deposited data

How the results depend on the processing

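Each of the 10 genes kept its direction under all of its alternatives, and TEAD2 under the Wald test of DESeq2 was the one call lost. TEAD2 could not be tested with a minimum of 10 counts per library. The log2 fold change of YAP1 ran from 3.18 to 3.44 and that of AMOTL2 from -2.28 to -2.22. Leaving out single libraries, 9 of the 10 genes were called every time. A minimum log2 difference of 1 in either direction left 2999 genes in place of 9776 over all, and 3 of the 10 genes, 3 upstream kinases and adaptors, 0 STRIPAK subunits and 9 YAP/TAZ targets. An adjusted p under 0.05 gave 5 STRIPAK subunits and 2 VGLL cofactors, and library size only gave 5 STRIPAK subunits. Library size only moved the median of all genes by 0.051. Of the VGLL cofactors, 0 were called by the Wald test of DESeq2, where 2 had an unadjusted p under 0.05, against 1 by edgeR, and 0 with the minimum of 10 counts, where VGLL2 was not tested. Leaving out single libraries, between 0 and 1 VGLL cofactors were called, with 0 without control replicate 1 and without OC2-OE replicate 3. The cause was not tested. The ratios of YAP1 to WWTR1 and of LATS1 to LATS2 and the 4 TEAD shares kept their direction without division by length and with each library left out.

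Samples with the same replicate number showed almost no shared deviation. The correlation of their deviations over genes was 0.00115, 0.0301 and 0.0252, and pairs with unlike numbers ran from -0.0316 to 0.00511. Control replicate 1 correlated best with OC2-OE replicate 3, and control replicates 2 and 3 with the OC2-OE replicate of the same number. With the replicate number as a block, 9 of the 10 genes were called, with a log2 difference of 3.34 for YAP1 and -2.27 for AMOTL2, 11 upstream kinases and adaptors in place of 12, and 9642 genes in all. Pairing by replicate number gave these 2 ratios and 4 shares an exact sign-flip p of 0.25, the smallest possible with 3 pairs.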

Other observations

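Values are given side by side for 4 families of close relatives within the pathway lists, picked after their values were known. Among the related kinases MAP4K4, MINK1 and TNIK, MAP4K4 fell by 1.31 on the log2 scale while MINK1 rose by 0.34 and TNIK by 1.81. Of the KIBRA scaffolds, WWC1 rose from 276 ± 5.22 to 419 ± 4.6 CPM (SD, n = 3), while WWC2 fell by 1.01 on the log2 scale and WWC3, with a log2 difference of 0.24, was not called (adjusted p = 0.00258, edgeR). MOB1B, an activator of LATS, rose from 25.3 ± 0.877 to 44.5 ± 1.24 CPM (SD, n = 3), with 24.5, 25.2 and 26.3 CPM in control and 45.6, 44.6 and 43.1 CPM in OC2-OE libraries. Its paralog MOB1A, at 168 ± 2.38 and 172 ± 2.95 CPM (SD, n = 3), was not called. Of the striatins, which belong to the STRIPAK list, STRN fell by 0.43, and STRN3 and STRN4 were not called, at -0.11 and 0.11 on the log2 scale. The difference in fold change between such relatives was not tested.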
